A study of Drosophila melanogaster with 2 samples.

Results

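The genes Ugalt, frc, sll, Efr, egh and brn encode transporters that supply sugar or sulfate donors to the secretory pathway of Drosophila melanogaster, or enzymes that build its glycolipids, and these 6 were taken by symbol from 13945 protein-coding genes of the Ensembl annotation. They were chosen by the summits and signals of the optimal peak list of this experiment, which were known when they were proposed, so their counts and signals are a description and carry no test. The experiment mapped dmrt93B, a DM-domain transcription factor, by chromatin immunoprecipitation and sequencing (ChIP-seq) in wandering larvae of the third instar. There was 1 group, labelled dmrt93B-GFP, made up of 2 biological replicates. A group without the tag was not analysed here. Each replicate was chromatin from whole animals of a transgenic strain that stably expresses dmrt93B with GFP at its C-terminal end, males and females together, so a peak cannot be placed in a tissue or a sex. The labels do not say which promoter drives the transgene, and the age is given as unknown. The sample descriptions call the libraries input controls while the antibody label, the assay name and a separately listed control describe a ChIP of dmrt93B. That conflict was not resolved, and every value below is for libraries labelled as dmrt93B ChIP. The authors deposited 30000 relaxed peaks per replicate, 30000 for the pooled replicates and an optimal list of 4159 pooled peaks past an irreproducible discovery rate (IDR) threshold. The read depth behind the lists is unknown.

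Sugars are activated as nucleotide sugars, mostly in the cytosol, and transporters carry them across the membranes of the Golgi and the endoplasmic reticulum, where glycosyltransferases use them. Ugalt encodes a UDP-galactose transporter. frc (fringe connection) encodes a transporter of several UDP-sugars that serve heparan sulfate synthesis and the sugar modification of Notch, sll (slalom) carries the sulfate donor PAPS into the Golgi, and Efr carries GDP-fucose into the endoplasmic reticulum rather than the Golgi. egh (egghead) and brn (brainiac) act on glycolipids: egh adds mannose to glucosylceramide, and brn adds N-acetylglucosamine to the product, a pair of steps needed for epithelial organisation in the fly ovary.

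The sequences at some of the summits in the windows of these genes are given first, from the NCBI Release 6 genome in dm6 coordinates. The frc line is named for its window only, since its summit was closer to the start site of CG32176 than to that of frc. A summit is the position of highest signal within a peak. Each line is a summit with the 50 bp to either side, written 5′ to 3′ on the strand of the named gene, less any base annotated as a UTR. Capitals mark the longest run made only of A and T. They are shown because the summits of egh had a higher GC content than those in the windows of the transporters, some of which were nearest to other genes. The windows are chrX:2703853-2703948 (minus strand) for Ugalt, chrX:2589595-2589695 and chrX:2593932-2593999 (plus strand) for the first intron and the most downstream promoter of egh, chr3L:17433713-17433813 (minus strand) for frc and chr3R:17604354-17604454 (plus strand) for sll. The egh line named promoter has its summit in an intron, 372 bp downstream of the third start site. It is so named because promoter here means within 500 bp of a start site.
Ugalt promoter: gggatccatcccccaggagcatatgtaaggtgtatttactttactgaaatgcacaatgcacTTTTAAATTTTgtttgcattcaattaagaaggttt
egh first intron: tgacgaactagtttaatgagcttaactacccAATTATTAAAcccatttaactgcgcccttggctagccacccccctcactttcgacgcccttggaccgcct
egh promoter: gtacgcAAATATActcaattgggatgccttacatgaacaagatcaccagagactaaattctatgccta
frc upstream: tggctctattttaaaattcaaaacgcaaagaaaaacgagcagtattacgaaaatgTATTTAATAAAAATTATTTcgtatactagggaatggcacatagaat
sll upstream: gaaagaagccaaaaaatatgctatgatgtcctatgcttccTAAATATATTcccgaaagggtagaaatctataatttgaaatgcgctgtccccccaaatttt

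The 6 genes had 12 optimal summits in the gene body or within 5 kb of it, and they were shared unequally. egh had 5, frc had 3, and Ugalt, sll, Efr and brn had 1 each. At least 1 such summit lay at 36.1% of all protein-coding genes, and the median gene had 0. The density was 1.42 summits per 10 kb over the 84242 bp of the 6 windows, against 0.378 over the same windows of all protein-coding genes. Without egh the other 5 genes had 1.10 per 10 kb. The summit farthest inside a margin lay 3566 bp from frc, and the nearest optimal summit left outside a margin lay 8237 bp from frc, with a signal of 144. With the 4159 strongest peaks of each replicate in place of the optimal list, the windows held 10 summits in replicate 1 and 11 in replicate 2, a density of 1.25 ± 0.0839 per 10 kb (SD, n = 2). The value of 0.378 is for the optimal list only.

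A summit within 500 bp of one of the gene's own transcription start sites (TSSs) was found at Ugalt and egh, 2 of the 6 genes, where the share of all protein-coding genes was 13.1%. The other 4 had none. The same 2 of 6 was the count in the 4159 strongest peaks of either replicate, where the share of all protein-coding genes was 10.1% in replicate 1 and 17.1% in replicate 2. In the full lists of 30000 entries, which reach much weaker peaks, an entry near a start of its own was found for 4 of the 6 in the pooled list (30.4% of all protein-coding genes), 2 in replicate 1 (24.3%) and 5 in replicate 2 (46.4%). Of the 12 summits, 7 had their nearest annotated TSS in the gene that brought them in, namely the single summits of Ugalt and sll and all 5 of egh. The other 5, at frc, Efr and brn, were closer to a start site of a neighbour. All summits in the window were closer to another gene at 3 of the 6, and the same held for 58.6% of the 5033 protein-coding genes with a summit in their window.

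**Figure D1:**
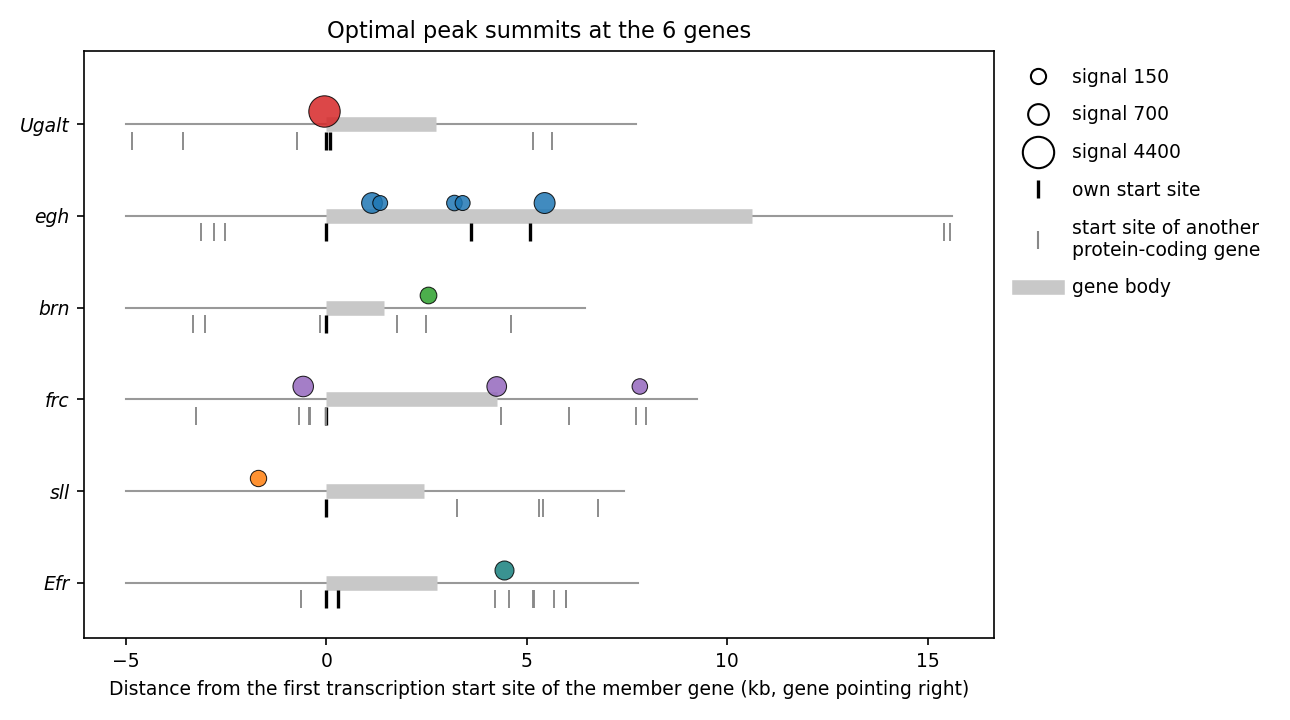
Positions of the 12 optimal summits (coloured circles, area rising with peak signal) at the 6 genes, in kb from the first TSS of each gene with transcription pointing right. Grey bars are gene bodies, thin lines the 5 kb margins, black ticks the gene's own start sites and grey ticks those of other protein-coding genes. Ugalt and egh have summits near a black tick, while those of brn, frc and Efr sit beside grey ticks.

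Ugalt (FBgn0024994, X 2701124 to 2703852, minus strand, 2 annotated start sites) had the strongest peak of the whole list. The peak, chrX:2703672-2704104, had its summit at position 2703898 in intergenic sequence, 46 bp upstream of the outermost TSS. The next nearest gene, eIF2Bbeta, which encodes a subunit of the exchange factor of translation initiation factor 2, started 673 bp away. The signal, which is the authors' own measure of peak strength and comparable only within a list, was 4440 in the optimal list, 2657 in replicate 1 and 1813 in replicate 2. Those values ranked 1, 2 and 1 in their lists, and the summits of both replicates lay within 3 bp of the optimal one. No other entry of the pooled list fell in the window, and the nearest optimal summit outside it was 40396 bp from the gene. The promoter summit most like it by rank in the optimal list was that of CG14100 on 3L, with a signal of 4282 and ranks of 1 and 2 in the replicates.

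At frc (FBgn0042641, 3L 17428936 to 17433190, minus strand, 1 TSS) there were 3 summits, and none was within 500 bp of its start. The strongest, at 17433763 with a signal of 672 (rank 338), lay 573 bp upstream of frc, just outside that limit, in the intergenic stretch between Coq4 and CG32176. It was 105 bp from the TSS of CG32176 and thus closer to that gene than to frc. Coq4, a gene of ubiquinone synthesis, overlaps frc on the same strand and ends at the same base, so a peak at its outermost start also lies upstream of frc. Replicate 1 gave this summit a signal of 402 (rank 295) and replicate 2 a signal of 273 (rank 397). The second summit, at 17428938 with a signal of 549 (rank 522), fell in the shared 3′ UTR of frc and Coq4 and 102 bp from the start of Gorab, which encodes a golgin-like protein. Its rank was 391 in replicate 1 and 704 in replicate 2. The weakest, at 17425370 with a signal of 167 (rank 2785), was 3566 bp past the gene and 107 bp from the start of COX7B, a cytochrome c oxidase subunit gene. It ranked 2517 in replicate 1 and 3142 in replicate 2.

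sll (FBgn0038524, 3R 17606106 to 17608541, plus strand, 1 TSS) had 1 summit, at 17604404, which lay 1702 bp upstream of the start in intergenic sequence. sll was the nearest gene, since the next start site, that of CG14329, was 4955 bp away. The signal was 219.5 in the optimal list (rank 2041), close to the median of 217 over all optimal peaks. It was 140.5 in replicate 1 (rank 1559) and 79.8 in replicate 2 (rank 2957), so the replicates ranked it less alike than most of these summits. No entry lay within 500 bp of the sll start in any of the 4 lists.

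Efr (FBgn0029849, X 6219957 to 6222719, plus strand, 2 start sites) had 1 summit in its window, at 6224385, which lay 1666 bp past the end of the gene. It fell in an intron of sqh, the gene of the regulatory light chain of non-muscle myosin II, 135 bp from an sqh start site and 4130 bp from that of Efr. Its signal was 467 (rank 698) in the optimal list and 189.8 (rank 818) in replicate 2, and replicate 1 had no entry within 200 bp. Near the start of Efr itself the pooled list had 1 weak entry, 141 bp upstream with a signal of 49.4 (rank 10552), and replicate 2 had 1 with a signal of 24.9 (rank 13211). Replicate 1 had none there.

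egh (FBgn0001404, X 2588503 to 2599111, plus strand, 3 start sites) held 5 optimal summits, all in its introns and all nearer to an egh start site than to any other gene. At least 5 summits in the window were found at 1.43% of protein-coding genes. Those 199 genes had a median window of 40976 bp, longer than the 20609 bp of egh. Among 589 genes with a window within 2 kb of that length, 13 had at least 5, and the median gene had 1. The density at egh was 2.43 summits per 10 kb, a value reached by 2.29% of protein-coding genes. Some of the 5 summits belong to overlapping peaks, so the count and the density are not of separate places. Among the 4159 strongest peaks of each replicate, egh had 5 summits in replicate 1 and 4 in replicate 2, so it fell short of 5 in replicate 2.

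The egh summits fell into 3 places. The strongest, at 2593949, lay 372 bp downstream of the third start site, with a signal of 741 (rank 268) in the optimal list, 387 (rank 320) in replicate 1 and 358 (rank 221) in replicate 2. Nearly as strong was the summit at 2589645 in the first intron, 1142 bp downstream of the first start site, with 705 (rank 301), 378 (rank 335) and 312 (rank 296). A weaker summit 205 bp further on, at 2589850, had a signal of 133 (rank 3479), the lowest of the 12, with ranks of 3641 and 2879 in the replicates. The last place was the sequence before the second start site, with summits 421 and 216 bp upstream and signals of 171 and 139 (ranks 2730 and 3325). Each replicate had a single entry that matched both of these, with ranks of 2880 and 2632, so they may be counted as 1 place in the replicates.

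Near the first start site of egh there was no optimal summit. The strongest pooled entry of the egh window that missed the optimal list had a signal of 83.3 (rank 5731), below the weakest optimal signal of 113. It lay 361 bp downstream of the nearest of the 3 egh start sites, and which of them that is was not recorded. The promoter summits most like the strongest egh summit by optimal rank were those of amon on 3R (rank 267, with 232 and 316 in the replicates), which encodes a prohormone convertase, and Kal1 on 3R (rank 270, with 259 and 266).

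brn (FBgn0000221, X 4104342 to 4105791, plus strand, 1 TSS) acts in the step after egh and had no optimal summit within 500 bp of its start. Its 1 summit, at 4106889, lay 1098 bp past the end of the gene, in the 5′ UTR of cib and 54 bp from a start site of cib, which encodes an actin-binding protein. The signal was 246 (rank 1768) in the optimal list and 118 (rank 1733) in replicate 2, where the summit was 93 bp away. Replicate 1 had no entry anywhere in the window of brn. At the brn start itself the pooled list had 1 entry, 34 bp upstream with a signal of 28.4 (rank 25783 of 30000). The strongest pooled entry of the window that missed the optimal list had a signal of 90.9 (rank 5254) and also lay inside cib.

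**Figure D2:**
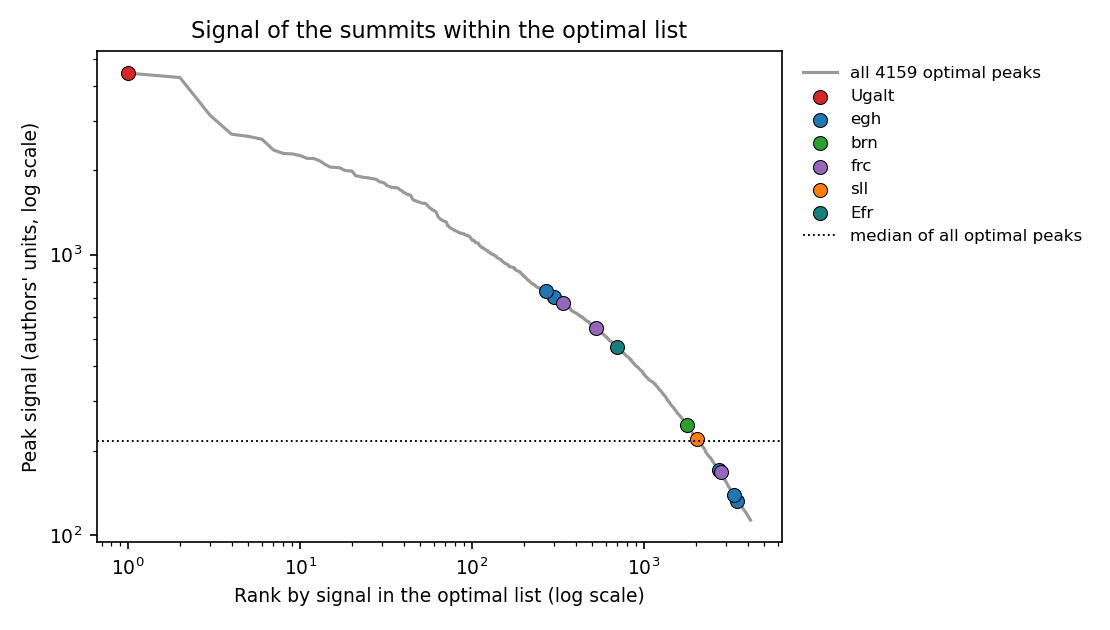
Signal of the 12 summits (coloured points) on the curve of all 4159 optimal peaks, with rank on the x axis and signal in the authors' units on the y axis, both on log scales. Ugalt stands at rank 1, 5 summits of egh, frc and Efr at ranks 268 to 698, and the rest near or below the dotted median of 217.

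The median signal of the 12 summits was 357, against 217 over all optimal peaks. Of the 12, 8 were in the stronger 2079 peaks of the list and 6 in the strongest 1039. The signals ran from 133 at egh to 4440 at Ugalt, and without Ugalt the median was 246.

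Replicate 2 had an entry within 200 bp of all 12 summits and replicate 1 of 10. Over the whole optimal list the shares were 3614 of 4159 (86.9%) in both replicates and 529 (12.7%) without an entry in replicate 1. Both of the missing summits were on the X chromosome and within 500 bp of a start site, those at cib and sqh. Of the 314 optimal summits of that kind 24.8% had no entry in replicate 1, and on the autosomes the share was 21.5% of 1344. For the 10 summits in both lists, the higher rank number was 1.09 to 2 times the lower one, with a median ratio of 1.31, and over all 3614 such peaks the median ratio was 1.40. sll had a ratio of 1.90 and the second frc summit one of 1.80, both stronger by rank in replicate 1. Ranks rather than signals were compared because the lists differ in scale.

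**Figure D3:**
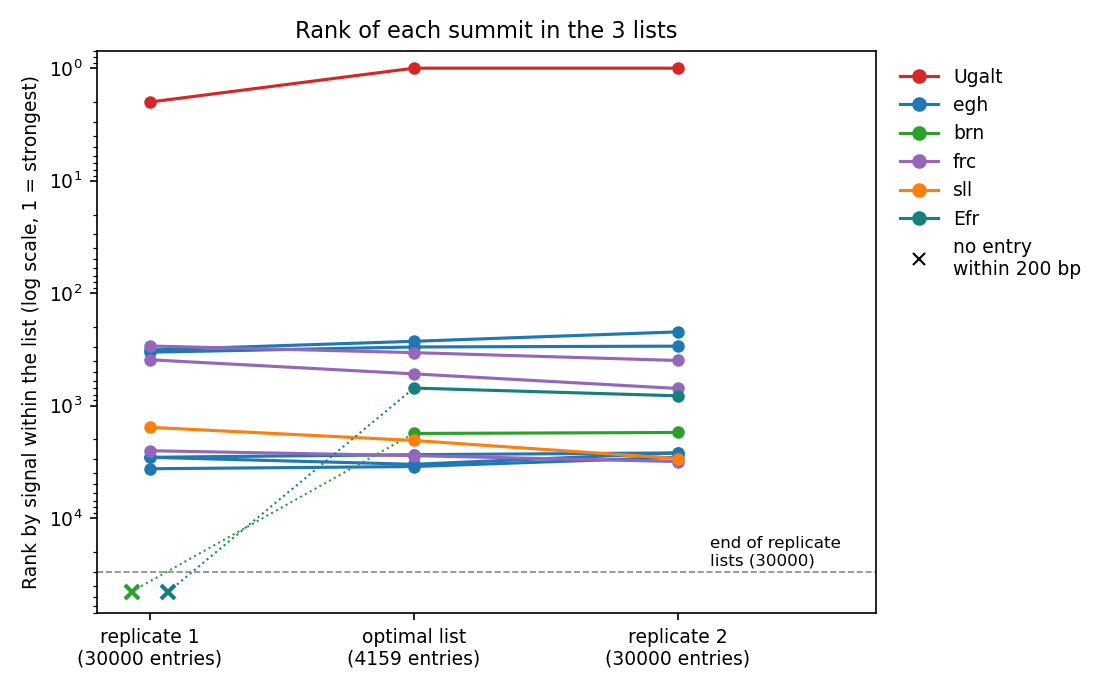
Rank by signal of each of the 12 summits in the replicate 1, optimal and replicate 2 lists, on a reversed log axis with 1 as the strongest. Lines join the same summit, and crosses below the dashed line, set apart sideways, mark the summits in the windows of brn and Efr that had no entry within 200 bp in replicate 1.

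Base composition, which the choice of genes did not use, differed among the summits. In windows reaching 50 bp to either side, the 12 summits had a mean GC content of 37.5%, against 32.96% over all optimal summits. Without egh the mean was 31.8%, on the other side of that value. All 5 egh summits lay between 41.6% and 49.5%, in the upper part of the list, where 16.2% of optimal windows reach 41.6%. The 3 frc summits had 26.7%, 22.8% and 27.7%, below every egh summit. Of all optimal windows, 78.8%, 92.5% and 74.4% reach these values. Ugalt had 36.6%, sll 35.6%, Efr 30.7% and brn 42.6%, the last within the range of egh. The summits in the windows of frc, Efr and brn were nearest to start sites of other genes, so their composition cannot be assigned to these members. At each of the 12 the GC content was below the mean of the windows centred 500 bp to either side, which averaged 48.6% for these genes and 43.7% for the whole list. The same was true of 82.6% of all optimal summits. The gap at egh was 0.495 percentage points for both summits in the first intron, 0.99 for the strongest, and 2.48 and 4.95 for the pair before the second start site. It was 7.92 points at brn and 9.41 at Ugalt. It was largest at the frc summit beside Gorab, with 22.8% against 58.9%. The longest run of A and T was 19 and 21 bp at the 2 strong frc summits and 22 bp at the one of Efr. It was 9 bp at the weakest frc summit, 11 bp at Ugalt, 10 bp at sll, 7 bp at brn and 6 to 10 bp at egh, where the median over all optimal windows was 10 bp. Summits and windows of 1 gene share their neighbourhood, so these are not independent values, and no test was made. At the distinct replicate entries matched to these summits, 9 in replicate 1 and 11 in replicate 2, the mean GC content was 37.2% ± 0.276 (SD, n = 2). The entries were selected by the same summits and largely cover the same sequence, so this SD does not measure biological spread.

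**Figure D4:**
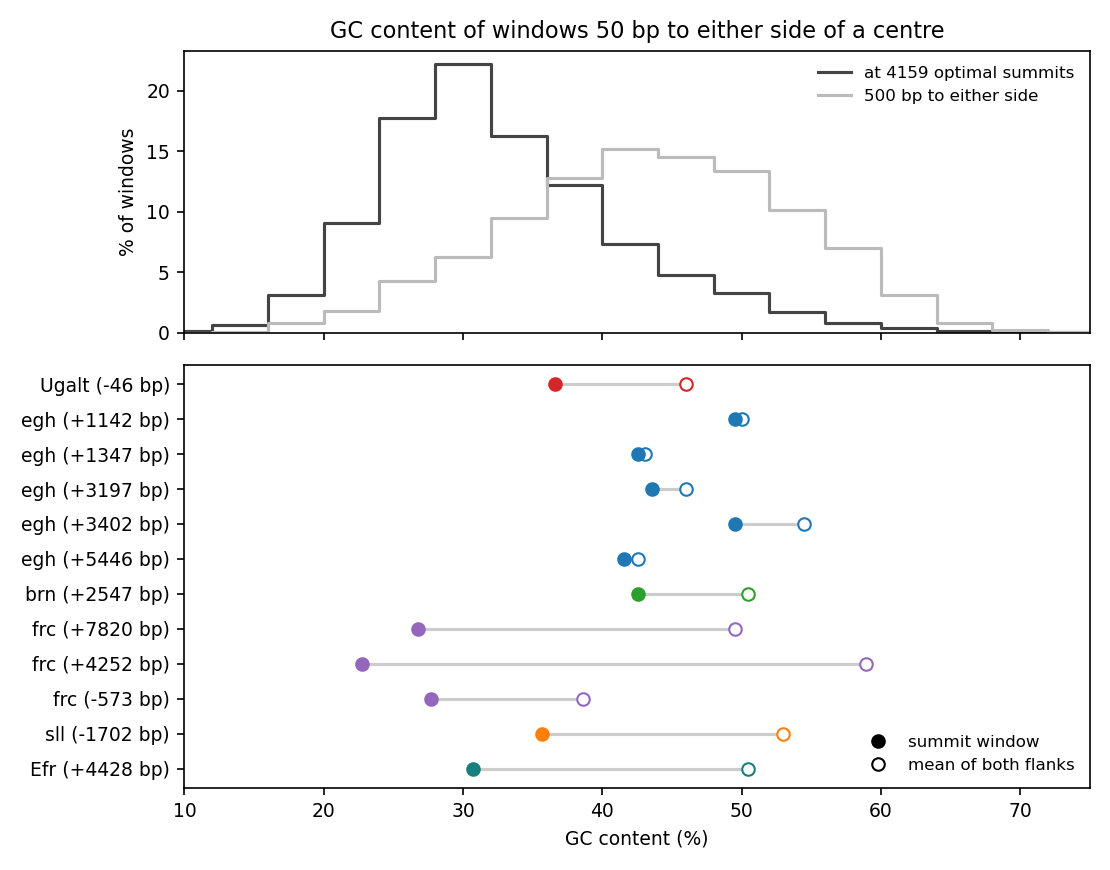
GC content in windows of 50 bp to either side of a centre. The upper panel gives the distribution at all 4159 optimal summits (dark line) and in windows 500 bp to either side (light line), in percent of windows. The lower panel gives each of the 12 summits (filled circles) and the mean of its flanks (open circles), labelled by distance from the first TSS of the gene. The 5 egh summits lie right of the others except brn, 0.495 to 4.95 points below their flanks.

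A small set of short motifs was searched at the summits. The DM-domain sites ACAATGT or ACATTGT, and TGTATCA, searched on both strands of the same windows, matched 0 of the 12 windows. They are held by 2.04% and 1.32% of all optimal windows, and nothing is read from the 0. TATCGATA, the DRE site of the promoter factor Dref (0.986% of optimal windows), CAGCTG (2.62%), TAATTA (10.8%) and Motif 1 (0.313%) matched 0 as well. TTAAAA was found at Ugalt, at 2 summits of frc and at Efr, 4 of 12 windows, against 33.8% of all optimal windows. TATAAA was at 1 frc summit and Efr (22.9% of all), and GAGAG at brn (8.68%). None of these motifs was found at a summit of egh or sll, and none of the motifs searched contains another.

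Among 71 further genes of the same pathways, taken from a list and all matched to the annotation, 13 (18.3%) had an optimal summit within 500 bp of a start site, beside the 13.1% of all protein-coding genes. The count depended on the list: it was 20 in the strongest peaks of replicate 2 (17.1% of all genes), 11 in those of replicate 1 (10.1%) and 7 in the stronger 2079 optimal peaks (8.47%). Of the 4 other transporters, senju had one (signal 244, 71 bp upstream), with no entry in replicate 1 and with eIF3h as the nearest gene. The transporters nac, Papst2 and meigo had none. Of 14 genes of glycosphingolipid and sphingolipid metabolism 3 had one. They were beta4GalNAcTB, which extends the same glycolipid chain after egh and brn (signal 433, ranks of 539 and 1298 in the replicates), lace, a subunit of serine palmitoyltransferase (354), and GlcT, the glucosylceramide synthase that makes the substrate of egh (145, no entry in replicate 1). Of 19 genes of glycosaminoglycan synthesis and sulfation 5 had one, led by the heparan sulfate sulfotransferase gene Hs2st (signal 759), the xylosyltransferase gene oxt (372) and the heparan sulfate polymerase gene ttv (213). FucTB was the 1 of 9 genes of fucose and Notch glycosylation (signal 720), with scat as the nearest gene. Gfat2, of glucosamine synthesis, was the 1 of 11 genes of nucleotide sugar synthesis (163). Of 14 Golgi enzymes of N- and O-glycans C1GalTA, a galactosyltransferase that uses the substrate carried by Ugalt (926, rank 159), and Pgant3 (125) had one. The promoter signals of Hs2st and C1GalTA were above that of the strongest summit of egh.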

How the data were processed

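The 6 genes, the pathway list, the motifs and the alternatives were chosen with earlier results of these data known. Chromatin was sonicated to 200 to 800 bp, per the labels. The lists are in dm6 coordinates, per the labels, and every peak ended within the arms of the reference. The deposited signal is the peak strength of the authors' caller and was used within a list only. The deposited −log10 q value was at its ceiling in 97.2% of optimal peaks and ranked nothing. The other deposited column is the summit offset. Replicates were called singly and pooled against 1 control alignment, per the text deposited with the samples. The peak caller, the aligner and the IDR threshold were not given in the sources used here. A replicate here is a separate biological sample, and each SD rests on n = 2.

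Genes and start sites came from Ensembl release 115, with 1 older symbol matched through RefSeq. Windows were the gene body with 5 kb on each side. Promoter summits lay within 500 bp of a TSS of the gene. A replicate entry matched when its summit was within 200 bp. Named were all 6 genes with each summit, the gene nearest to it, up to 3 pathway genes per subgroup by signal and the neighbours in rank of promoter summits. The runs of A and T were chosen after seeing the sequences. Promoter calls and matching were checked on simulated lists with summits planted inside the limits, so this checked the code and not the choice of limits. The counts within 5 kb were not checked in this way. Python 3.11.15, numpy 2.4.6, pandas 2.3.3 and matplotlib 3.10.9 were used. No statistical test was run.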

Additional observations from a re-analysis of the deposited data

How the results depend on the processing

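Most counts kept close to their value. The 12 summits became 6 in the gene bodies alone. They became 7 when only those nearest to the gene's own start were kept, a restriction added after seeing the data. Leaving a replicate out meant taking the 4159 strongest peaks of the other one, the same values as given above, without a new IDR list. The counts with replicate 1 or 2 left out were 11 and 10. The density of 1.42 per 10 kb was 2.48 in the gene bodies, 2.28 with a 2 kb margin and 0.901 with 10 kb, and 1.31 and 1.19 with replicate 1 or 2 left out. The 0.378 over all protein-coding genes is for the optimal list with the 5 kb margin, and no such value is given for the other settings. The 2 genes with a promoter summit became 3 with a window of 1000 bp, which takes in the frc summit at 573 bp and raises the share of all protein-coding genes from 13.1% to 15.6%. The count of summits in both replicates ran from 9 to 10. The mean GC content of 37.5% was 34.8% in narrower windows, 39.5% in wider ones and 31.8% without egh. The 13 pathway genes became 7 in the stronger 2079 peaks, and 20 with replicate 1 left out and 11 with replicate 2 left out, while the shares of all protein-coding genes became 8.47%, 17.1% and 10.1%. The cause of these moves was not tested. No paired analysis was possible because the study has 1 group. Depth is unknown, so an entry absent from a list does not show that a site is unbound.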
